A study of Mus musculus with 6 samples.

Results

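The 33 genes described here encode the steps by which a cell takes up glucose, splits it to pyruvate and releases lactate, the enzymes that decide whether pyruvate enters the mitochondria, and 5 further genes that are switched on in low oxygen. They were taken by gene symbol, from a list drawn up with earlier results of these data known, out of a table of 53647 genes in macrophages of mouse pancreatic tumours. Where a symbol occurred on more than 1 row, the row with the larger summed count was taken, which concerned Aldoa with 2 rows. All 33 were found, and all 33 were among the 16031 genes with enough counts to be tested.

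The tumours were pancreatic ductal adenocarcinomas (PDAC) placed in the pancreas of C57BL/6 mice, and macrophages taken from them were separated by Cxcr4, the receptor for the chemokine Cxcl12. Total RNA was sequenced from 3 Cxcr4+ and 3 Cxcr4- samples. The labels name no other treatment, allele, age or sex, call Cxcr4+ and Cxcr4- a genotype although the protocol describes a sort, and do not give the tumour line or gate. They also do not state if the samples of a group were different mice, so that each p-value below reflects only how far these 6 libraries differ among themselves. The question of the series is what sets Cxcr4+ tumour macrophages apart, and the single comparison is Cxcr4+ minus Cxcr4-.

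Glycolysis turns glucose into pyruvate in the cytosol. Lactate dehydrogenase can reduce that pyruvate to lactate, which leaves the cell through proton-coupled carriers, while pyruvate dehydrogenase sends it to the mitochondria and is held back by its kinases. When oxygen is scarce, hypoxia-inducible factors (HIF) bind short DNA motifs near many of these genes and raise their transcription, and macrophages also raise glycolysis when inflammatory signals activate them.

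Each library held 46444934 to 55740671 estimated counts, and 19457 to 20433 genes had a count above 0. Levels here are in FPKM (fragments per kilobase of transcript, a level scaled to gene length and library size). Cxcr4, the gene used for the sort, had 9.18, 9.05 and 9.59 FPKM in the Cxcr4+ libraries. The Cxcr4- libraries had 8.56, 5.97 and 7.73 FPKM, so the groups did not overlap but lay close together. Of all tested genes, 5.5% lay above in this way. In edgeR's quasi-likelihood test Cxcr4 had a log2 fold change of 0.27 (SE 0.19, unadjusted p = 0.183, adjusted p = 0.999). The test used below therefore did not call the sort gene itself. The macrophage genes Lyz2 (5337 to 7797 FPKM) and Cd68 (1024 to 1247 FPKM) were abundant in all 6 libraries. Of markers of other cells, S100a9, Ngp and Camp (neutrophils), Lum (fibroblasts), Tff1 (ductal epithelium) and 7 of 8 acinar enzymes were listed at 0 throughout. Other such markers were present: the 12 neutrophil markers summed to 6.66 to 10.2 FPKM over the libraries. The 6 B cell markers, none at 0 throughout, summed to 30.7 to 36.1 FPKM. Only 3 of the 12 neutrophil and 2 of the 6 B cell markers had enough counts to be tested.

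Many of the glycolytic transcripts were abundant, and most differed little between the sorted groups. None of the 33 genes passed an adjusted p of 0.05 in edgeR's quasi-likelihood test, with p-values adjusted over all 16031 genes. Of all tested genes 0.0312% passed, 0.0125% higher (2 genes) and 0.0187% lower (3 genes) in Cxcr4+, so the count of 0 is what this list length gives at that rate. At an unadjusted p under 0.05, 1 of the 33 was found, the hexokinase Hk1, against 4.85% of all tested genes (2.18% in its direction, lower in Cxcr4+). DESeq2 called 0 of the 33 and, over the whole table, 27 genes higher and 36 lower. Limma on log2(FPKM + 1) called 0 of the 33 as well. At an unadjusted p under 0.05 DESeq2 had 1 of the 33 (5.61% of all genes) and limma 2 (5.21%). In bulk RNA, fewer cells of a kind and less RNA in each cell cannot be told apart.

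The absence of calls went with narrow intervals. For 24 of the 33 genes the 95% interval of the fold change lay inside 1.41-fold in either direction (0.5 on the log2 scale), compared with 55.9% of the 11124 tested genes that had a mean of at least 1 FPKM. The coefficient of variation over the 6 libraries had a median of 8.80% for the 33 genes and 13.2% for those 11124. The 33 genes were also more abundant, with a median of 29.4 FPKM against 3.09 for all tested genes. The 11124 genes were not matched to them for level, so the narrow intervals are not shown to be a trait of these genes. In 27 of the 33 the highest library was 1.07 to 1.90 times the lowest, and the other 6 (Pfkfb3, Pfkfb4, Gapdh, Ldhb, Ankrd37 and Adm) spread further. Small differences were more often negative than positive. Cxcr4+ was lower for 21 genes and higher for 12 (63.6% lower, against 49.9% of all tested genes), with a median log2 fold change of -0.06 against 0.00 for all genes.

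**Figure D1:**
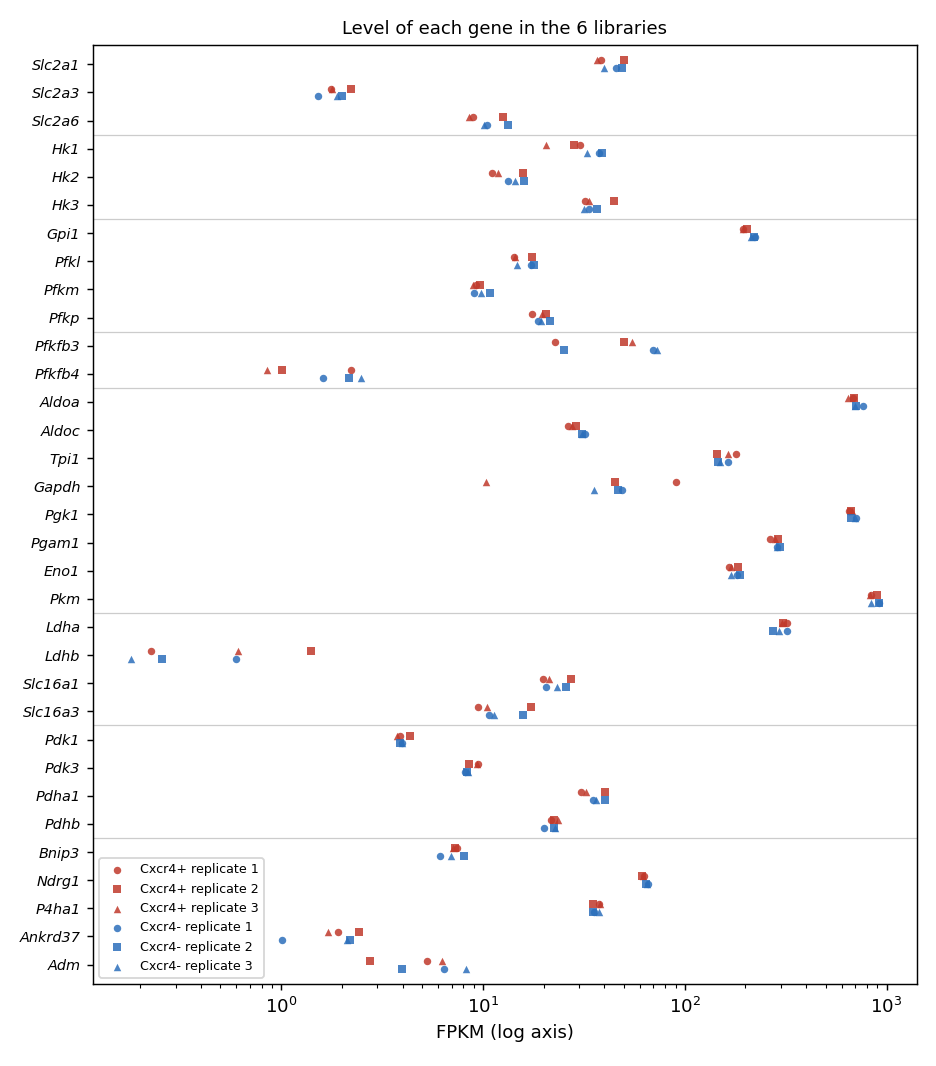
Level of each of the 33 genes in FPKM (horizontal, log axis), with Cxcr4+ libraries in red and Cxcr4- libraries in blue, a marker shape per library number, and grey lines between pathway steps. Pkm, Aldoa and Pgk1 stand at the right and Ldhb at the left, and the red and blue points of most genes lie on top of each other, while Gapdh runs from 10.3 to 91.0 FPKM.

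The later steps held the most abundant transcripts. A mean of 100 FPKM was reached by 8 genes, against 456 of all 16031 tested genes: Gpi1, Aldoa, Tpi1, Pgk1, Pgam1, Eno1, Pkm and Ldha. Pkm, pyruvate kinase, was the highest and ranked 55 among all tested genes. Together the 33 genes took 1.64, 1.71 and 1.60% of the counts in the Cxcr4+ libraries and 1.79, 1.73 and 1.69% in the Cxcr4- libraries. The Cxcr4- libraries 1 and 2 held the highest shares, and Cxcr4- library 3 lay below Cxcr4+ library 2, so the groups overlapped. These shares leave out counts on near-identical copies of the genes elsewhere in the genome. For Gapdh the copies held 1022052 counts against 67109 on the gene itself, as set out below.

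Glucose enters through facilitative transporters. Slc2a1 (Glut1), the general carrier, had 38.4, 49.8 and 36.8 FPKM in the Cxcr4+ libraries and 45.7, 48.8 and 39.9 in the Cxcr4- libraries. Its groups overlapped, with a log2 fold change of -0.11 (SE 0.11, 95% interval -0.38 to 0.15). Slc2a1 made up 76.2 to 79.3% of the summed FPKM of the 3 transporters. Slc2a6, a carrier found in lysosomes of inflammatory macrophages, had the smallest p of the 3, with 8.97, 12.6 and 8.51 FPKM in Cxcr4+ and 10.4, 13.2 and 10.1 in Cxcr4-. Its groups overlapped, with a log2 fold change of -0.17 (95% interval -0.53 to 0.18), and it held 18.1 to 20.7%. The high-affinity carrier Slc2a3 (Glut3) ranged from 1.53 to 2.21 FPKM and held 2.65 to 3.79%. All 3 shares overlapped between the groups.

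The hexokinases trap glucose in the cell as glucose 6-phosphate, and Hk1, a widely expressed form that binds mitochondria, showed the smallest p of the 33 genes. Hk1 (chr10:62104634-62215687, minus strand, GRCm39) had 30.4, 28.3 and 20.4 FPKM in the Cxcr4+ libraries. The Cxcr4- libraries had 37.7, 38.8 and 32.9. Every Cxcr4+ library lay below every Cxcr4- library, with Cxcr4+ library 3 lowest. The means were 26.4 ± 5.26 and 36.4 ± 3.14 FPKM (SD, n = 3 each), 27.6% lower in Cxcr4+. The log2 fold change was -0.47 (SE 0.15, 95% interval -0.82 to -0.13). Its unadjusted p was 0.014 and its adjusted p in edgeR was 0.953, so Hk1 did not pass over all genes. Groups without overlap and lower in Cxcr4+ made up 4.87% of tested genes. In 20 of 21 alternative analyses Hk1 again had an unadjusted p under 0.05, the exception being the libraries numbered 1 and 3 taken alone.

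The groups of the other hexokinases overlapped. Hk2, the inducible form that responds to HIF, had 11.1, 15.9 and 11.8 FPKM in Cxcr4+ and 13.3, 15.9 and 14.4 in Cxcr4-, a log2 fold change of -0.18 (95% interval -0.46 to 0.10). Its unadjusted p was under 0.05 in 2 alternatives, without Cxcr4+ library 2 (log2 fold change -0.31) and in the libraries numbered 1 and 3 alone (-0.28). Hk3, a form of myeloid cells, had 31.9, 44.8 and 33.7 FPKM in Cxcr4+ and 33.4, 36.6 and 31.8 in Cxcr4-, a log2 fold change of 0.11 (95% interval -0.16 to 0.37). The difference between Hk1 and the other hexokinases was not tested. Of the summed hexokinase FPKM, Hk1 held 41.4, 31.8 and 30.9% in Cxcr4+ and 44.7, 42.5 and 41.6% in Cxcr4-. Hk3 held 43.5, 50.3 and 51.1% in Cxcr4+ and 39.6, 40.1 and 40.2% in Cxcr4-. For both genes the groups did not overlap, although Cxcr4+ library 1 (41.4%) lay next to Cxcr4- library 3 (41.6%) for Hk1. Hk2 held 15.1 to 18.2% with overlapping groups. Shares within a family depend on each other, so the Hk3 share is not a second result beside the lower Hk1. In the other enzyme and carrier families every share overlapped between the groups. These shares are given as a description, without a test.

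**Figure D2:**
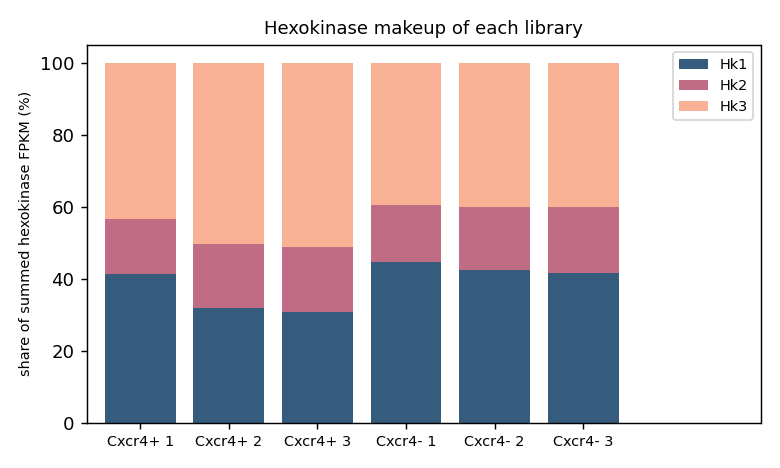
Share of the summed FPKM of 3 hexokinases held by Hk1, Hk2 and Hk3 (stacked bars, percent) in each of the 6 libraries. The Hk1 part spans 30.9 to 41.4% for Cxcr4+ and 41.6 to 44.7% for Cxcr4-, and the Hk3 part is larger than the Hk1 part in all 3 Cxcr4+ bars.

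Sums over some of the marker lists also separated the groups. For 12 proliferation genes the Cxcr4+ libraries summed to 260 to 322 FPKM, the others to 209 to 255, with all 12 positive and 0 called by edgeR. The 10 fibroblast markers, with Lum at 0, summed to 3.53 to 17.2 FPKM in Cxcr4+, highest in library 1, against 2.31 to 3.28. The 10 tumour and ductal epithelium markers, with Tff1 at 0, summed to 1.77 to 3.38 FPKM in Cxcr4+ against 3.52 to 6.08. The sums of all other marker lists, such as macrophage, neutrophil and endothelium, overlapped between the groups. Of single tested genes, 5.5% lay wholly above in Cxcr4+ and 4.87% wholly below. The part of the separated sums in the Hk1 difference was not tested. With 1 library left out, the log2 fold change of Hk1 ran from -0.61 to -0.33. These ends came without Cxcr4+ library 1 and without Cxcr4+ library 3, the highest and lowest Cxcr4+ libraries for Hk1.

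The next steps convert glucose 6-phosphate and commit it to the pathway. Gpi1, the phosphohexose isomerase (chr7:33900755-33929761, minus strand), had 193.7, 202.9 and 195.2 FPKM in the Cxcr4+ libraries and 224.1, 220.2 and 213.6 in the Cxcr4- libraries. All Cxcr4+ libraries were below all Cxcr4- libraries, with group means of 197.3 ± 4.94 and 219.3 ± 5.33 FPKM (SD, n = 3 each). The log2 fold change was -0.16 (95% interval -0.33 to 0.01), with an unadjusted p of 0.0649 and an adjusted p of 0.999 in edgeR. The 3 phosphofructokinase subunits, which catalyse the committed step, overlapped between groups. Pfkl, the liver form, had a log2 fold change of -0.12, Pfkm, the muscle form, -0.09, and Pfkp, the platelet form, -0.06, each with an interval inside 1.41-fold. Pfkp held 41.6 to 45.8% of the phosphofructokinase FPKM and Pfkl 33.5 to 38.3%, Pfkm making up the rest. Pfkp lies partly over Pitrm1 on the other strand (748 bases, 27497 counts on Pitrm1 against 90427 on Pfkp), and whether counting used the strand is not given in the sources used here.

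Fructose 2,6-bisphosphate, the strongest activator of phosphofructokinase, is set by the Pfkfb enzymes, and these were among the most variable of the 33 genes. Pfkfb3 had 22.7, 50.1 and 54.7 FPKM in Cxcr4+ and 69.3, 25.1 and 72.5 in Cxcr4-. One library of each group was low, number 1 in Cxcr4+ and number 2 in Cxcr4-, and the log2 fold change of -0.42 had an interval from -1.49 to 0.65. It was -0.13 without Cxcr4+ library 1, -0.21 without Cxcr4- library 1, -0.18 without Cxcr4- library 3, -0.68 without Cxcr4+ library 3 and -0.78 without Cxcr4- library 2, so its size rested on single libraries. Pfkfb4 had 2.21, 1.01 and 0.851 FPKM in Cxcr4+ and 1.61, 2.17 and 2.48 in Cxcr4-. Here Cxcr4+ library 1 sat among the Cxcr4- libraries. The log2 fold change was -0.61 (95% interval -1.48 to 0.26) over all libraries and -1.18 without that library, which is not a call either (adjusted p = 0.732 in edgeR).

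From aldolase to pyruvate kinase the differences were small. Aldoa, the main aldolase that splits fructose 1,6-bisphosphate (chr7:126394406-126399923, minus strand), had 683.3, 686.9 and 643.2 FPKM in Cxcr4+ and 763.6, 704.3 and 698.2 in Cxcr4-. Its groups did not overlap, Cxcr4+ library 2 lying next to Cxcr4- library 3, and the log2 fold change was -0.11 (95% interval -0.31 to 0.09). Aldoc, a second aldolase that held 3.70 to 4.25% of the summed aldolase FPKM (chr11:78213794-78218607, plus strand), had 26.3, 28.8 and 27.6 FPKM in Cxcr4+ and 32.1, 30.8 and 31 in Cxcr4-. These did not overlap either, with a log2 fold change of -0.19 (95% interval -0.39 to 0.00, unadjusted p = 0.0516, adjusted p = 0.999 in edgeR).

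Pgk1, the phosphoglycerate kinase that makes the first ATP of the pathway, had 650.0, 666.4 and 677.3 FPKM in Cxcr4+ and 706.7, 666.6 and 696.7 in Cxcr4-. Pkm, the enzyme that makes pyruvate, had 840.3, 901.8 and 827.9 FPKM in Cxcr4+ and 918.3, 914.1 and 834.9 in Cxcr4-. Both overlapped between groups, and both had a log2 fold change of -0.06 (95% intervals -0.26 to 0.13 and -0.22 to 0.10). Pgam1, the phosphoglycerate mutase, and Eno1, the enolase, had log2 fold changes of -0.06 with overlapping groups (264.1 to 296.0 and 166.0 to 186.8 FPKM). Tpi1, the triose phosphate isomerase, ranged from 144.9 to 180.0 FPKM with a log2 fold change of 0.09 (95% interval -0.21 to 0.39). As a description without a test, the 17 genes from hexokinase to pyruvate kinase with the Pfkfb enzymes were pooled. This grouping was not among the planned summaries. Of these 17, 14 were lower in Cxcr4+ (82.4%, against 49.9% of all tested genes). The 3 higher were Hk3, Tpi1 and Gapdh, and Gapdh became negative with its copies summed. The median log2 fold change of the 17 was -0.09, against 0.00 for all genes. The groups did not overlap for 4 of the 17, all lower in Cxcr4+, a pattern of 4.87% of tested genes. The steps left out of the pool were mixed in direction. Higher in Cxcr4+ were 1 of 3 glucose transporters and 2 of 4 genes of the lactate step. So were 3 of 4 genes of pyruvate dehydrogenase and its kinases and 3 of 5 hypoxia targets. Over all 33 genes, 21 were lower and 12 higher in Cxcr4+. The 17 genes were measured in the same 6 libraries and are not independent of each other. On their own rows, without copies, their summed FPKM was 3234, 3339 and 3161 in Cxcr4+ and 3525, 3381 and 3312 in Cxcr4-. These sums overlapped through Cxcr4+ library 2 and Cxcr4- library 3.

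**Figure D3:**
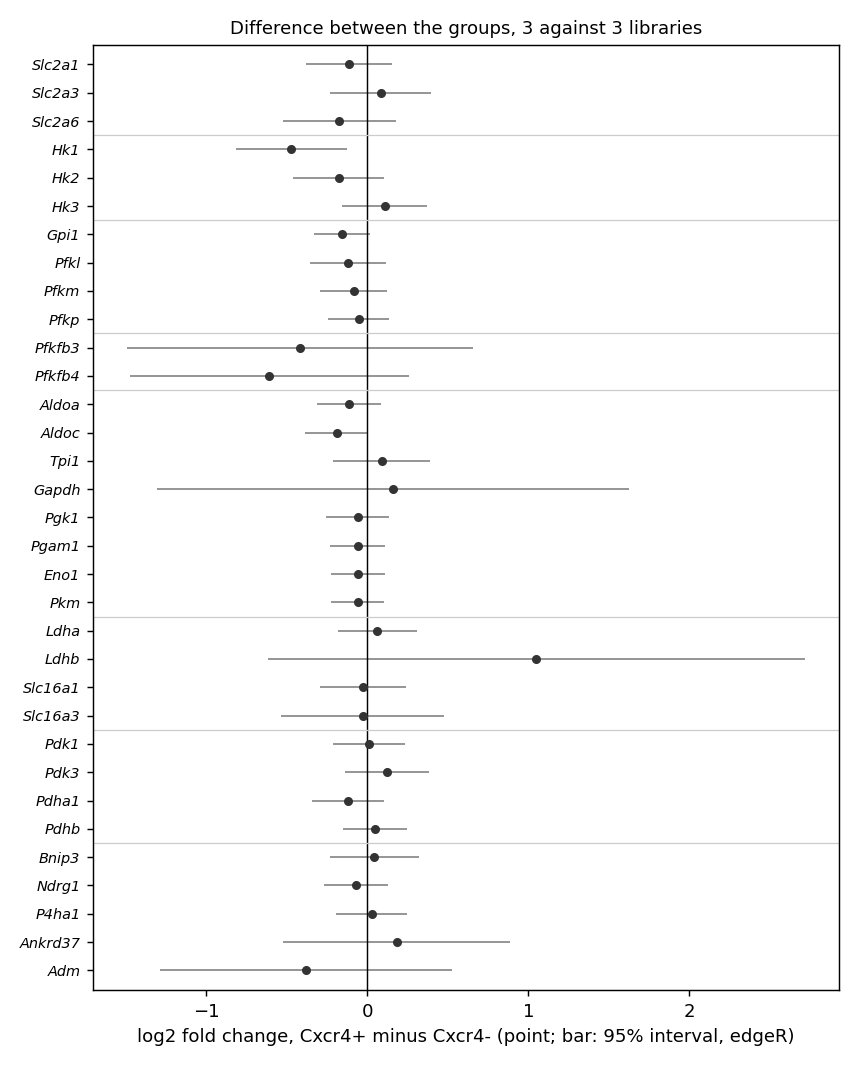
Log2 fold change of each gene, Cxcr4+ minus Cxcr4- (point), with its 95% interval from edgeR (bar), in pathway order. Only the interval of Hk1 leaves out 0, and Ldhb, Gapdh, Pfkfb3, Pfkfb4 and Adm have the widest bars.

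Gapdh, the glyceraldehyde 3-phosphate dehydrogenase that is widely used as a reference gene, was the least even of the abundant enzymes. Its own row (chr6:125138678-125142736, minus strand) had 91.0, 45.2 and 10.3 FPKM in Cxcr4+ and 48.7, 46.7 and 35.5 in Cxcr4-. Cxcr4+ held both the highest and the lowest library, 8.82-fold apart, and the log2 fold change of 0.16 had an interval from -1.30 to 1.62. The gene has 77 near-identical copies elsewhere in the genome (a transcript at least 95% identical over at least 300 bases), and 76 of them had counts. The copies held 1022052 counts and the Gapdh row 67109, so that 93.8% of the counts lay on copies. That share was 88.0, 94.2 and 98.5% in Cxcr4+ and 94.2, 93.9 and 95% in Cxcr4-.

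With the copies added, the libraries lay close together: 3548, 3613 and 3318 CPM (counts per 1000000 counts of the library) in Cxcr4+ and 3957, 3578 and 3325 in Cxcr4-. The highest was then 1.19 times the lowest, and the log2 fold change was -0.06. The processed pseudogene Gm13394 alone (chr2:28823622-28824621) held 393204 counts, and its level was 1086 to 1316 FPKM. The coding sequence of Gapdh, 999 bases, differs from it at 1 base, A346C, counted from 1 at the A of the start codon with the base of Gapdh first. The stretch from coding base 316 to 376 is shown because it holds the only coding base that tells the rows apart, which the capital marks.
Gapdh: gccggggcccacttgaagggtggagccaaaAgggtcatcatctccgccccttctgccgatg
Gm13394: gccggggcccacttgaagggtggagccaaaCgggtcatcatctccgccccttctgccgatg

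Eno1 was in the same position to a lesser degree. Its 3 copies held 45.7% of the summed counts, 142298 on the pseudogene Gm4735 (chr2:80667485-80668786) and 132102 on Eno1b, against 327453 on Eno1 itself. Eno1b had 37.9, 272.3 and 202.8 FPKM in Cxcr4+ and 245.9, 265.6 and 215.3 in Cxcr4-, with Cxcr4+ library 1 far below the rest. The share on copies was 32.7% in that library and 46.6 to 48.8% in the other 5, and summing the copies moved the log2 fold change of Eno1 from -0.06 to -0.16, without a call. The coding sequences of Eno1 and Gm4735, 1302 bases, differ at 5 bases. Coding bases 696 to 756 are shown around T726C (the base of Eno1 first), in capitals, to set out how little separates the rows.
Eno1: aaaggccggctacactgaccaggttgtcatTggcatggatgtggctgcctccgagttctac
Gm4735: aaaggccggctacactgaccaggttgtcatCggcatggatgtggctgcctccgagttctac

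Of the 33 genes, 11 had such copies and 9 had over 1% of the summed counts on them. Besides Gapdh and Eno1 these were Bnip3 (11.1%, 627 of 699 counts on 1 long non-coding gene), Pgam1 (10.1%, all on Pgam1-ps2), Ldhb (5.03%), Pgk1 (3.09%), Pdhb (2.33%), Tpi1 (1.04%) and Pkm (1.04%). Hk1, Aldoa and Aldoc had none, and Gpi1 had 0.475% on copies. How the authors placed reads that match several genes is not given in the sources used here, so the rows of Gapdh and Eno1 are uncertain as levels of those genes.

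**Figure D4:**
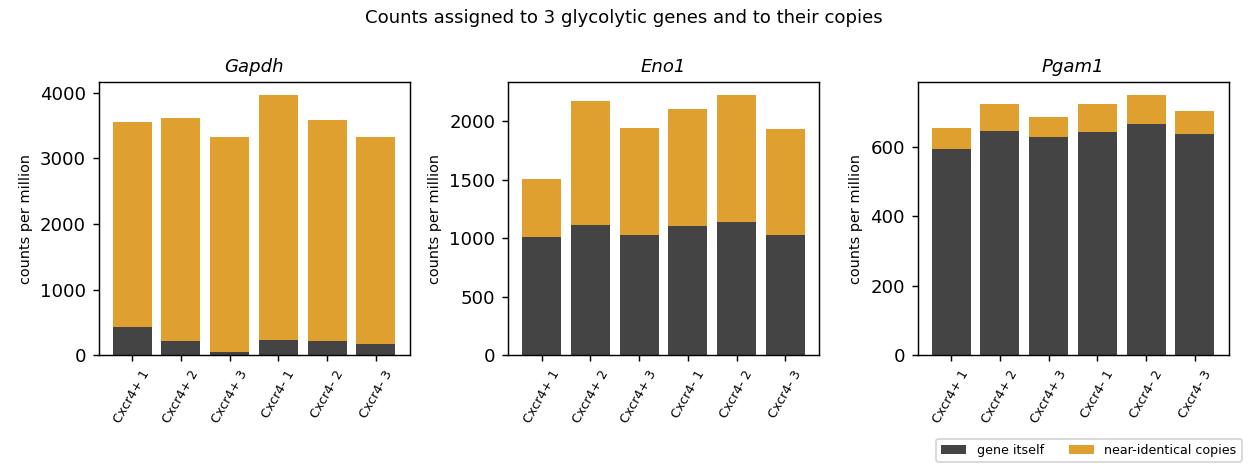
CPM on Gapdh, Eno1 and Pgam1 (dark) and on their near-identical copies (orange), stacked, in each library; each panel has its own vertical axis from 0. The dark part of Gapdh is small and uneven while the whole bar stays between 3318 and 3957, and the orange part of Eno1 is smallest in Cxcr4+ library 1.

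At the lactate step no gene was called and the groups overlapped for each gene. Ldha, the subunit that favours lactate formation, had 322.5, 306.7 and 303.3 FPKM in Cxcr4+ and 320.5, 275.1 and 293.1 in Cxcr4-. The groups overlapped, with a log2 fold change of 0.06 (95% interval -0.19 to 0.31). Ldha made up 99.5 to 99.9% of lactate dehydrogenase FPKM in these libraries. Ldhb, the heart-type subunit, had 0.226, 1.40 and 0.610 FPKM in Cxcr4+ and 0.595, 0.257 and 0.179 in Cxcr4-, from 15 to 130 counts in a library. Cxcr4+ library 2 was the highest and the groups overlapped. The log2 fold change of 1.05 had an interval from -0.62 to 2.72. It was 0.29 without that library and 1.75 without Cxcr4- library 1. The lactate carriers were Slc16a1 (Mct1), from 19.9 to 27.4 FPKM, and Slc16a3 (Mct4, the HIF-responsive exporter), from 9.50 to 17.3 FPKM. Both had a log2 fold change of -0.03 with overlapping groups. The 95% interval was -0.29 to 0.24 for Slc16a1 and -0.54 to 0.47 for Slc16a3. Slc16a1 held 61.3 to 67.7% of their sum.

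The genes that direct pyruvate to the mitochondria differed little as well. Pdk3, a kinase that switches pyruvate dehydrogenase off (chrX:92808213-92875807, minus strand), had 9.45, 8.51 and 9.29 FPKM in Cxcr4+ and 8.18, 8.34 and 8.46 in Cxcr4-. It was alone among the 33 genes in having every Cxcr4+ library above every Cxcr4- library, a pattern that 5.5% of tested genes had. The nearest libraries had 8.51 and 8.46 FPKM, and the log2 fold change was 0.12 (95% interval -0.14 to 0.38, unadjusted p = 0.307). Pdk1, the kinase best known as a HIF target, had 3.89, 4.36 and 3.75 FPKM in Cxcr4+ and 3.99, 3.90 and 3.97 in Cxcr4-, a log2 fold change of 0.01. Pdk3 held 66.1 to 71.2% of the FPKM of these kinases. Pdha1, the alpha subunit of the E1 enzyme, had 30.7, 40.4 and 32.5 FPKM in Cxcr4+ and 35.3, 40.5 and 36.3 in Cxcr4-. Its groups overlapped, with a log2 fold change of -0.12 (95% interval -0.34 to 0.10). Pdhb, the beta subunit, had 20.2 to 23.5 FPKM, a log2 fold change of 0.05 and overlapping groups. Pdha1 overlaps Map3k15 on the other strand (1143 bases, 2857 counts on Map3k15 against 46277).

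The 5 further low-oxygen targets gave no common direction, with 3 higher and 2 lower in Cxcr4+. Ndrg1, a stress-responsive gene and a strong hypoxia marker (chr15:66801167-66841489, minus strand), had 63.1, 61.3 and 62.1 FPKM in Cxcr4+ and 65.8, 64.0 and 65.2 in Cxcr4-. It was the steadiest of the 33 genes, with a coefficient of variation of 2.76% over all libraries. Its groups did not overlap although the means, 62.2 ± 0.902 and 65.0 ± 0.882 FPKM (SD, n = 3 each), were only 4.39% apart; the log2 fold change was -0.07 (95% interval -0.27 to 0.13, unadjusted p = 0.43).

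P4ha1, a prolyl hydroxylase of collagen, had 35.2 to 38.1 FPKM and Bnip3, a mitophagy receptor, 6.15 to 8.06 FPKM, with log2 fold changes of 0.03 and 0.04. Ankrd37, a small ankyrin-repeat gene, had 1.91, 2.42 and 1.70 FPKM in Cxcr4+ and 1.01, 2.19 and 2.13 in Cxcr4-. Adm, the vasodilator peptide adrenomedullin, had 5.28, 2.74 and 6.29 FPKM in Cxcr4+ and 6.42, 3.95 and 8.26 in Cxcr4-. Library 2 was the lowest of its group on both sides for Adm, and the log2 fold change of -0.38 had an interval from -1.29 to 0.53. It was -0.08 without Cxcr4+ library 2, -0.12 without Cxcr4- library 3, and -0.65 without Cxcr4+ library 3 or Cxcr4- library 2. The groups of all 4 overlapped.

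Of the 33 genes, 6 had groups that did not overlap in either direction: Hk1, Gpi1, Aldoa, Aldoc and Ndrg1 lower and Pdk3 higher. Such genes made up 10.4% of all tested genes. The library numbered 2 was the highest of its group on both sides for 14 of 33 genes (42.4%, against 34% of tested genes), among them all 3 glucose transporters, Hk2, Hk3, the 3 phosphofructokinases and both lactate carriers. It was the lowest on both sides for 4 (Tpi1, Ndrg1, P4ha1 and Adm; 12.1%, against 14%).

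**Figure D5:**
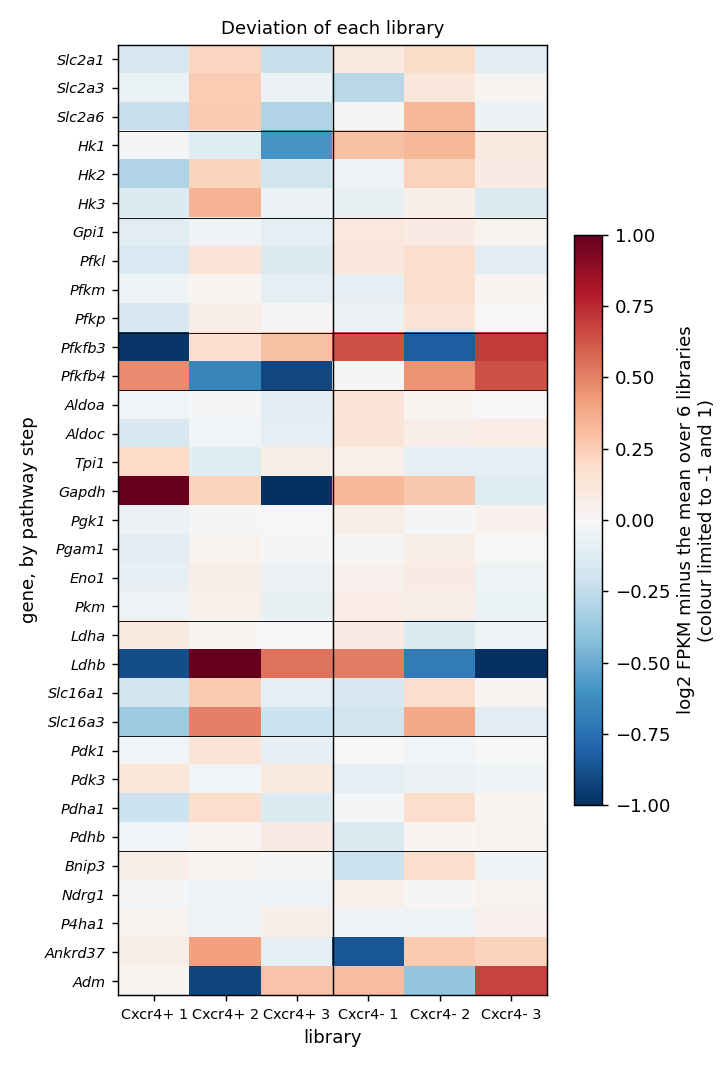
Log2 FPKM of each gene in each library minus its mean over the 6 libraries (red above, blue below, colour limited to -1 and 1), with genes in pathway order and the groups divided by a vertical line. Pale colours fill most rows, and the strongest colours are in Pfkfb3, Pfkfb4, Gapdh, Ldhb, Ankrd37 and Adm. Hk1 is clearly blue only in Cxcr4+ library 3, is near white in Cxcr4+ library 1, and is reddest in Cxcr4- libraries 1 and 2.

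The bases before the start of transcription were read for 31 of the 33 genes from RefSeq (GRCm38.p6; Slc2a3 and Ndrg1 were not matched). The core to which HIF binds was searched as ACGTG or GCGTG on either strand, that is also CACGT or CACGC, with overlapping matches counted separately, in the 250 bases before the start. It occurred in 29 of 31 genes (93.5%), against 41.5% of 27025 genes listed in RefSeq, taking for each gene the listed start with the most matches. For the start listed first it occurred in 83.9% against 38.6%. The windows of the 31 genes were also richer in G and C, with a median of 64.0% against 52.8%, and the motif holds a CG pair. The 27025 genes were not limited to those tested here and were not matched for level. Bnip3 and Ldha had 5 matches, and Gpi1 and Tpi1 had 0. A match describes these letters and is not evidence of binding.

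The windows of Hk1, the gene with the smallest p, Gpi1, which was also lower in every Cxcr4+ library, and Bnip3, which was level, are printed with their 3, 0 and 5 matches; for Hk1, which has 2 listed starts, the one with the most matches is shown. They lie at chr10:62340422-62340671, chr7:34230337-34230586 and chr7:138909507-138909756 of GRCm38.p6, all on the minus strand, and capitals mark the matches.
Hk1: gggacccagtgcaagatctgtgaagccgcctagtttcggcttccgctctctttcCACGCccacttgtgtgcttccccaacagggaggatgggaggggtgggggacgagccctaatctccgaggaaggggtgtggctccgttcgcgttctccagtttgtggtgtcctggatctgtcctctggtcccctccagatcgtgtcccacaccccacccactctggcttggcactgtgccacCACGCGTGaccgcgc
Gpi1: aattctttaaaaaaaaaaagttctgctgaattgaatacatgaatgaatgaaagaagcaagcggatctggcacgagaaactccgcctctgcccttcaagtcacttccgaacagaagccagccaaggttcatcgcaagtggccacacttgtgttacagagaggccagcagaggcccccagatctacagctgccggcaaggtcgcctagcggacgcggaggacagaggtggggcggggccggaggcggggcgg
Bnip3: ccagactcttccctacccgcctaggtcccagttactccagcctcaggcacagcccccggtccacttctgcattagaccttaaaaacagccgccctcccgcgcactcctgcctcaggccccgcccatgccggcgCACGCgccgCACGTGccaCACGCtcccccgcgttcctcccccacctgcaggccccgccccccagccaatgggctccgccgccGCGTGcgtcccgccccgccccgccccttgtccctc

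Genes of the same pathways outside the 33 gave no call in edgeR either. Of 27 other genes of glycolysis and glucose entry, 17 were tested, 7 higher and 10 lower in Cxcr4+. The most abundant was Eno2, the neuronal enolase, at 33.5 ± 8.80 FPKM in Cxcr4+ and 33.7 ± 7.09 in Cxcr4- (SD, n = 3 each). Among those with a mean of at least 1 FPKM, the smallest p-value above belonged to Bpgm, which makes 2,3-bisphosphoglycerate (log2 fold change 0.29), and the smallest below to Pfkfb2 (-0.18) and Tigar, a fructose bisphosphatase (-0.06).

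Of 16 other genes of lactate and pyruvate handling, 14 were tested, with 9 higher and 5 lower. Bsg, the chaperone that brings lactate carriers to the cell surface, led with 192.9 ± 18.5 FPKM in Cxcr4+ and 174.5 ± 24.3 in Cxcr4- (SD, n = 3 each), a log2 fold change of 0.13. Dlat, the E2 subunit of pyruvate dehydrogenase, had 0.14, Mpc1, a mitochondrial pyruvate carrier, -0.12 and Pcx, pyruvate carboxylase, -0.07.

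Of 36 other hypoxia targets, 33 were tested, with 16 higher and 17 lower and a median log2 fold change of 0.00. Hmox1, the haem oxygenase, was the most abundant at 757.9 ± 78.9 FPKM in Cxcr4+ and 731.0 ± 57.2 in Cxcr4- (SD, n = 3 each). Mif, a cytokine, had 679.5 ± 51.7 and 746.8 ± 90.7 FPKM, a log2 fold change of -0.15, and Plod1, a lysyl hydroxylase, -0.11. Anln, an actin-binding protein of dividing cells, was higher in every Cxcr4+ library (log2 fold change 0.31, unadjusted p = 0.0237, adjusted p = 0.998 in edgeR), and Ero1a, an oxidase of the endoplasmic reticulum, had 0.10. Vegfa, the angiogenic growth factor, named here after its values were seen, was lower in every Cxcr4+ library (log2 fold change -0.14, unadjusted p = 0.291 in edgeR). Anln and Vegfa were the 2 of these genes without overlap, 1 in each direction, against 5.5% of tested genes above and 4.87% below.

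Among the 9 HIF factors and oxygen sensors, 5 were higher and 4 lower. Hif1a, the main oxygen-regulated subunit, had 20.4 ± 3.15 FPKM in Cxcr4+ and 19.5 ± 2.57 in Cxcr4- (SD, n = 3 each), a log2 fold change of 0.06. Epas1, which encodes HIF-2 alpha, and Egln1, the main oxygen-sensing prolyl hydroxylase, were higher in every Cxcr4+ library with log2 fold changes of 0.28 and 0.21. Their unadjusted p-values in edgeR were 0.0898 and 0.115 (adjusted 0.999 for both), and 5.5% of tested genes lay above in this way. Egln2 had -0.12. Hif3a, a family member with inhibitory isoforms, had 0.751, 0.844 and 0.974 FPKM in Cxcr4+ and 1.67, 2.09 and 1.79 in Cxcr4-. Its groups did not overlap, as in 4.87% of tested genes in this direction. The log2 fold change of Hif3a was -1.11 (SE 0.15, interval -1.47 to -0.75), with an unadjusted p of 0.000137 in edgeR. That p was the smallest among the 33 genes and the other pathway lists. Its adjusted p in edgeR was 0.183, so Hif3a was not called.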

How the data were processed

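The authors deposited 1 table of 53647 genes that gives each library an estimated count and an FPKM value per gene, per the file headers. The submitters' processing notes name cutadapt, HISAT2, StringTie and GRCm39, without versions or order; the annotation release, the placing of reads with several matches and the use of strand are not stated. Counts were whole as deposited, and rounding altered none. They need not be single reads: among counts between 1 and 20, multiples of 4 made up 43.2%, and an even spread would give 25%. The constant FPKM listed beside a count of 0 was read as 0.

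The test was edgeR 4.0.16 in R 4.3.3 (quasi-likelihood, legacy dispersion) on TMM-scaled counts, with Cxcr4 group as the model. Genes were kept by filterByExpr with a minimum count of 10 and a minimum total of 15, which left 16031, and Benjamini-Hochberg adjustment ran over these. The scripts were tested on simulated data. The 33 genes, the other pathway lists and the marker lists were chosen with earlier results of these data known. All 33 genes are named; values per library are given for the highest gene and that of smallest p in a step and those whose groups do not overlap. Of each other pathway list the text names the most abundant gene and up to 2 genes per direction of smallest p with a mean of at least 1 FPKM; some items are not reported here. Full values of further genes were added after they were seen.

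Copies were found with BLAST 2.17.0 among GENCODE M21 transcripts, at least 95% identical over 300 bases and not within 1000000 bases of the gene. Alternatives were other scalings and filters, DESeq2 1.42.0, limma 3.58.1 on log2(FPKM + 0.1, 1 or 5), edgeR's bias-adjusted method, counts divided by 4, an adjusted p under 0.1, blocks and subsets of libraries and leaving out each library; summing copies into their gene was chosen after seeing the data. Figures were drawn with matplotlib 3.10.9.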

Additional observations from a re-analysis of the deposited data

How the results depend on the processing

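None of the 33 genes was called under any of the 21 alternatives, where the lowest adjusted p was 0.303 (Hk1 in DESeq2). Their median log2 fold change stayed between -0.08 and -0.04 and the number higher in Cxcr4+ between 9 and 13. The number of genes called over the whole table was less steady. It was 2 higher and 3 lower in Cxcr4+ as reported and 27 and 36 with DESeq2. With library totals alone 1 was lower. On log2(FPKM + 1) limma called 0 lower, on log2(FPKM + 0.1) 1 lower, and on log2(FPKM + 5) 1 higher and 0 lower. Counts divided by 4 and edgeR's bias-adjusted method each gave 1 higher. Leaving out 1 library at a time gave 0 to 5 higher and 0 to 4 lower: 0 and 1 without Cxcr4+ library 1 or 3, 5 and 4 without Cxcr4+ library 2, 1 and 0 without Cxcr4- library 1, 2 and 3 without Cxcr4- library 2, and 5 and 0 without Cxcr4- library 3. The cause of these moves was not tested.

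The labels do not say what a replicate number marks, and libraries with the same number were not treated as pairs. Their deviations from the group means correlated at 0.038, 0.141 and 0.045, and 4 of 6 libraries correlated best with the library of their own number. With the number fitted as a replicate block, edgeR called 0 genes higher and 0 lower (1495 at an unadjusted p under 0.05, 9.33% of genes against 4.85% without the block), and 4 of the 33 genes (Adm, Aldoc, Gpi1 and Hk1) had an unadjusted p under 0.05.

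Of 692 fold changes of single genes over the alternatives, 669 kept their direction and 23 reversed, in 11 genes; the other 22 genes kept theirs throughout. Gapdh became -0.28 on log2(FPKM + 1), -0.31 on log2(FPKM + 0.1), -0.20 on log2(FPKM + 5), -0.29 with the replicate block and -0.057 with copies summed, and Pdk1 became -0.068 in the libraries numbered 1 and 3 alone. With 1 library left out, the log2 fold changes ran from -0.71 to 0.64 for Gapdh, -0.30 to 0.12 for Slc16a3, -0.078 to 0.35 for Ankrd37, -0.14 to 0.047 for Slc16a1, -0.0046 to 0.20 for Tpi1, -0.017 to 0.18 for Hk3, -0.022 to 0.15 for Ldha, -0.0004 to 0.13 for Slc2a3, -0.022 to 0.11 for Bnip3, -0.026 to 0.092 for P4ha1 and -0.037 to 0.044 for Pdk1. Ldhb was not tested when a mean of at least 1 FPKM was required.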
